A study of Mus musculus with 6 samples.

Results

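The genes examined were the receptors for fibroblast growth factors (FGF) and hepatocyte growth factor (HGF), and the ligand gene Fgf2. Also examined were the genes whose products shut this signalling down (Spry1, Spry2, Spry4 and Dusp6). The cells were muscle stem cells labelled as Setdb1 knockout and their controls. The 10 genes were chosen by name from known FGF and HGF signalling, with earlier results of these data known. All 10 were matched to 1 Ensembl identifier each among the 55487 genes of the count table. Muscle stem cells of 10-week-old mice were profiled by RNA sequencing 60 h after cardiotoxin (CTX, a venom toxin that destroys muscle fibres). The 3 control animals were labelled wild type (WT) and given oil, and the 3 knockout (KO) animals were labelled Setdb1 KO and given tamoxifen, so genotype and tamoxifen differ together and cannot be told apart. The recombinase, its promoter and how the cells were isolated are not stated in the labels.

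HGF binds the receptor tyrosine kinase MET, and FGFs bind FGFR1 to FGFR4 together with heparan sulphate chains on the cell surface. Both receptor families signal through RAS and the kinase ERK. In muscle, HGF and FGF2 are known for bringing quiescent stem cells into the cell cycle, and FGF signalling restrains their differentiation. ERK activity induces its own brakes: Sprouty proteins block the pathway near the receptor, and DUSP6 removes the activating phosphates from ERK. SPRY1 is known for the return of a part of the dividing stem cells to quiescence.

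Libraries held 4052569 to 5690844 counts, of which 2002124 to 3050460 fell in protein-coding genes. A single gene, CT010467.1, held 38.4% of the counts of KO library 1 and 28.6% to 32.2% of those of the others. KO library 1 also had the lowest protein-coding share (49.4%). Setdb1, which encodes a histone H3 lysine 9 methyltransferase, was measured at 34.8, 40.5 and 32.1 CPM (normalised counts scaled to library size by the TMM method) in the controls, against 16.5, 12.7 and 14.7 CPM after deletion, so the groups matched their labels. The 11 muscle stem cell markers examined, among them Pax7, Myf5 and Cdh15, were all detected, and their summed level was 1307 to 1390 CPM in controls and 1480 to 1902 CPM in KO libraries. One of the 11 was called, Myod1, the myogenic transcription factor gene, which rose from 142 ± 5.49 to 292 ± 63.4 CPM (log2 fold change 1.04 with SE 0.15 and adjusted p = 7.791e-04). Without Myod1 the sums of the other markers overlapped (1169 to 1249 CPM in controls and 1243 to 1540 CPM in KO libraries). They did so only through KO library 3 and control library 1. Myod1 was left out because it was called, which by itself brings the sums closer. Pax7 and Myf5 each had a log2 fold change of -0.01. Des (0.46), Chodl (0.59) and Cdh15 (0.38) had higher KO means without being called, and 6 of the 11 had a positive fold change. At an unadjusted p under 0.05 (edgeR), 4 of the 11 were higher, Myod1 included, and 0 were lower. The share of all tested genes was 17.7% in either direction. KO library 1 stood apart, with counts in 30363 genes against 18737 to 19951 in the others. Neutrophil markers summed to 2179 CPM in control library 3, to 895 and 292 CPM in KO libraries 2 and 3, and to at most 2.30 CPM in the remaining libraries. Markers of fibroblasts summed to 1029 to 2102 CPM in controls and 1819 to 2665 CPM in KO libraries. In bulk RNA, fewer cells of a type and less RNA per cell cannot be told apart.

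None of the 10 genes changed between KO and control cells at an adjusted p under 0.05, against a background of 2.83% of the 11224 genes tested. Of the 10, 9 had enough counts to be tested, and Fgfr2 did not. At an unadjusted p under 0.05, 1 of the 9 (Dusp6) passed, against 17.7% of all tested genes. The libraries of the groups did not overlap for 2 of the 9 (Fgf2 and Dusp6), against 24.3% of all tested genes. A negative log2 fold change (KO minus control) was measured in 6 of the 9 and in 49.1% of all tested genes. The median log2 fold change was -0.06 for the 9 genes and 0.01 for all tested genes, and the median absolute log2 fold change was 0.21 in both. DESeq2 and limma-voom also called none of the 10. The count was 0 when any 1 library was left out, without KO library 1 included, and also when control library 3 and KO library 1 were both removed.

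**Figure D1:**
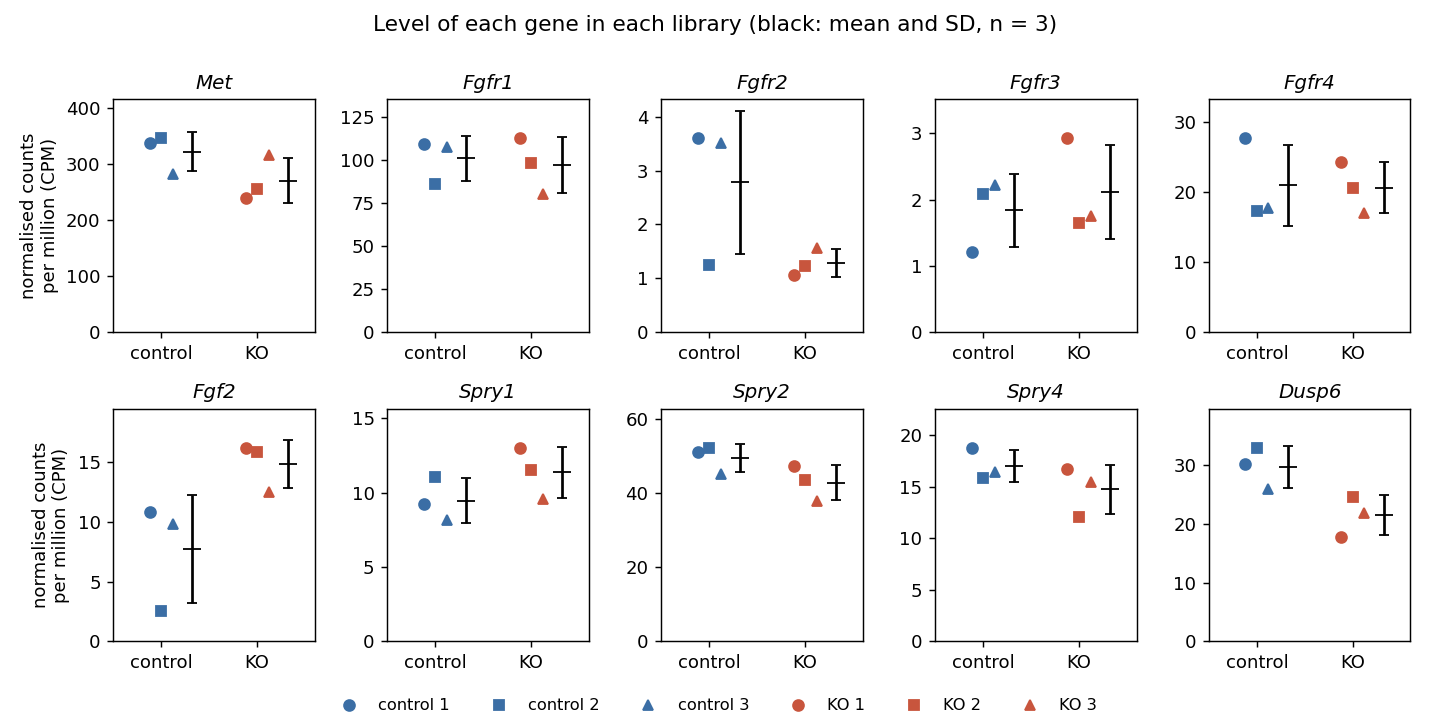
Level of each of the 10 genes in each library, in CPM on a linear axis that starts at 0 in each panel; symbols mark the library number, and black bars give the mean and SD of 3 libraries. Control and KO points overlap in every panel except Fgf2 and Dusp6.

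The intervals of the fold changes set how far these null results reach. For 7 genes (Met, Fgfr1, Fgfr4, Spry1, Spry2, Spry4 and Dusp6) the 95% interval of the fold lay inside a 2-fold change in either direction. For Fgf2 and Fgfr3 it did not. These intervals come from the model of each gene singly and are not corrected for the number of genes.

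**Figure D2:**
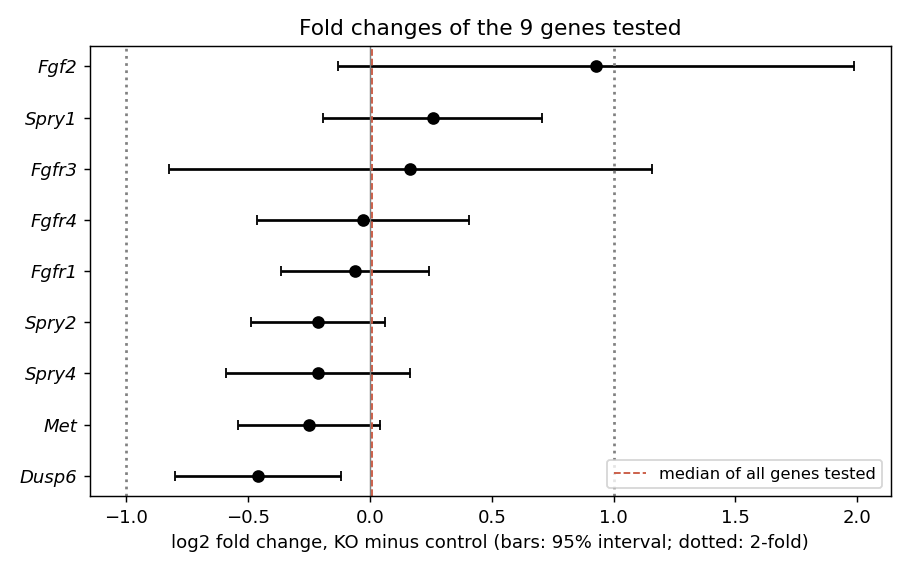
Log2 fold change (KO minus control) of the 9 tested genes with 95% intervals from edgeR; dotted lines mark 2-fold changes and the dashed line marks the median of all tested genes. Only the intervals of Fgf2 and Fgfr3 reach past a 2-fold change, and only that of Dusp6 leaves out 0.

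Met (ENSMUSG00000009376, chromosome 6, 17463800 to 17573980, plus strand, GRCm38), the HGF receptor, had the highest level of the 10 per kilobase of exon. It was measured at 337, 345 and 282 CPM in the controls, and the 3 KO values were 240, 255 and 315 CPM. KO libraries 1 and 2 lay below all controls, and KO library 3 lay inside the control range. The means were 322 ± 34.4 and 270.1 ± 40.0 CPM (mean ± SD over 3 libraries), and the log2 fold change was -0.25 (with SE 0.14 and adjusted p = 0.357). The KO level was thus 0.840 of the control level, with a 95% interval of 0.686 to 1.03. With 901 to 1684 counts per library, the spread between libraries (10.7% of the mean in controls) was well above the 2.48% that counting alone gives.

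Among the FGF receptors, Fgfr1 and Fgfr4 carried nearly all transcripts in both groups. Fgfr1 (ENSMUSG00000031565, chromosome 8, 25513654 to 25575718, plus strand) is the most widely expressed receptor of the family. It was measured at 109.5, 86.0 and 107.7 CPM in controls and at 112.8, 98.2 and 80.3 CPM in KO libraries. These ranges overlapped almost entirely (log2 fold change -0.06 with SE 0.14 and adjusted p = 0.868, 95% interval of the fold 0.777 to 1.18). Without KO library 3 the log2 fold change was 0.05.

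Fgfr4 (ENSMUSG00000005320, chromosome 13, 55152640 to 55168759, plus strand) is the family member tied to myogenic cells. Its levels were 27.6, 17.3 and 17.7 CPM in controls and 24.2, 20.5 and 17.0 CPM in KO libraries. Control library 1 was the highest of the 6, and the groups overlapped (log2 fold change -0.03 with SE 0.20 and adjusted p = 0.959, interval of the fold 0.725 to 1.32). The sign turned without control library 1 (0.21) or KO library 3 (0.08).

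Fgfr3 (ENSMUSG00000054252, chromosome 5, 33721674 to 33737068, plus strand), known for restraining bone growth, was near the limit of detection with 6, 10 and 12 counts in controls and 11, 8 and 9 in KO libraries. Both groups totalled 28 counts. Its log2 fold change of 0.17 (with SE 0.46 and adjusted p = 0.893) has an interval of 0.565 to 2.23 on the linear scale, which does not exclude a 2-fold increase. The sign turned without control library 1 (-0.07) or KO library 1 (-0.11).

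Fgfr2 (ENSMUSG00000030849, chromosome 7, 130162451 to 133123350, minus strand) was too low to be tested. It had 18, 6 and 19 counts in controls and 4, 6 and 8 in KO libraries, or 2.79 ± 1.33 against 1.29 ± 0.25 CPM (n = 3 each). Control library 2 lay within the KO range, while control libraries 1 and 3 were higher. Where other filters or library subsets let it be tested, the log2 fold change ran from -1.44 to -0.99 with adjusted p between 0.249 and 0.876. One annotated transcript of Fgfr2 runs into the gene Ctbp2 and shares 314 exon bases with it, which makes the assignment of reads there uncertain.

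No share of the receptor pool passed a test between the groups, in a design where p can go no lower than 0.1. Per kilobase of exon, Fgfr1 made up 57.1%, 62.1% and 65.8% of the summed FGF receptor level in controls and 60.9%, 61.8% and 61.0% in KO libraries. The means were 61.7 ± 4.37% and 61.2 ± 0.50% (exact permutation test over the 6 libraries, two-sided p = 0.7). Fgfr4 made up 35.1 ± 4.98% and 36.2 ± 0.23% (exact permutation p = 0.7). Fgfr2 had the smallest p of the 4 shares, with 1.57 ± 0.62% in controls and 0.809 ± 0.30% in KO libraries (exact permutation p = 0.2), and control library 2 (0.865%) lay within the KO range. Fgfr3 made up 1.61 ± 0.65% and 1.82 ± 0.38% (exact permutation p = 0.7).

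Fgf2 (ENSMUSG00000037225, chromosome 3, 37348346 to 37410108, plus strand) encodes the growth factor that is the classical mitogen of muscle stem cells. It was measured at 10.8, 2.51 and 9.79 CPM in controls and at 16.2, 15.8 and 12.5 CPM in KO libraries. Every KO library lay above every control library, but control library 2 stood far below the other controls, with 12 counts against 54 and 53. The means were 7.70 ± 4.53 and 14.8 ± 2.04 CPM, a log2 fold change of 0.93 (with SE 0.44 and adjusted p = 0.341, interval of the fold 0.913 to 3.97). The control spread of 58.8% of the mean compares with 15.9% from counting alone. Without control library 2 the log2 fold change was 0.51 (adjusted p = 0.345). Fgf2 passed in a single alternative, the fit with no filter on low counts (0.89, adjusted p = 0.01019), and in none of the other 13. Exons of Fgf2 and Nudt6, on the opposite strand, share 640 bases, and the strand setting of the counting is not given. Nudt6 itself had 1 to 9 counts per library. The part of reads from the shared bases in the Fgf2 values was not tested.

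The summed fibroblast markers were also lowest in control library 2 (1029 CPM, against 2102 and 1532 CPM in the other controls and 1819, 1829 and 2665 CPM in the KO libraries). None of the 12 tested fibroblast markers passed at an adjusted p under 0.05, and 10 had a positive fold change (median log2 fold change 0.42). None of the 14 markers on the list was at 0 in all libraries. Most of each sum came from Col1a1, Col1a2, Col3a1 and Dcn. In KO library 3 these were at 798, 668, 581 and 293 CPM, and Pdgfra was at 21.5 CPM. The list includes Cd34, which muscle stem cells express as well. The part of fibroblast transcripts in the Fgf2 values was not tested.

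**Figure D3:**
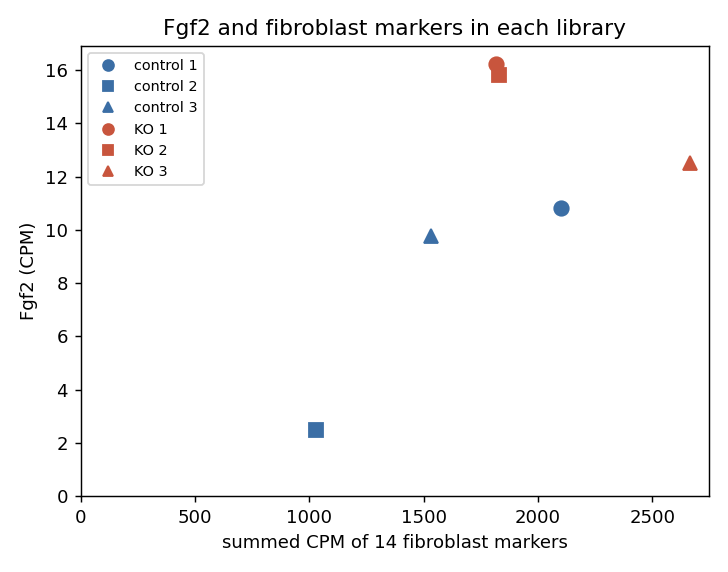
Fgf2 level of each library (CPM) against the summed level of 14 fibroblast markers (CPM), with both axes starting at 0. Most of each sum came from Col1a1, Col1a2, Col3a1 and Dcn. Control library 2 is lowest on both axes, and KO library 3 has the highest marker sum (2665 CPM) with the lowest Fgf2 level of the KO libraries (12.5 CPM).

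The Sprouty genes gave small differences of unlike sign. Spry1 (ENSMUSG00000037211, chromosome 3, 37639947 to 37644598, plus strand) was at 9.21, 11.1 and 8.13 CPM in controls and 13.0, 11.5 and 9.58 CPM in KO libraries. The groups overlapped (log2 fold change 0.26 with SE 0.21 and adjusted p = 0.559, interval of the fold 0.876 to 1.63). Its spread in controls (15.7%) was close to that from counting alone (14.5%).

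Spry2 (ENSMUSG00000022114, chromosome 14, 105891947 to 105896819, minus strand), which encodes a paralogue with the same action on RAS signalling, was at 50.9, 52.2 and 45.1 CPM in controls and 47.1, 43.3 and 37.7 CPM in KO libraries. Only KO library 1 lay inside the control range (log2 fold change -0.21 with SE 0.13 and adjusted p = 0.411, interval of the fold 0.714 to 1.04). Spry4 (ENSMUSG00000024427, chromosome 18, 38586247 to 38601415, minus strand), the remaining Sprouty gene examined, was at 18.8, 15.9 and 16.4 CPM in controls and 16.8, 12.1 and 15.4 CPM in KO libraries. KO library 1 again lay among the controls (log2 fold change -0.21 with SE 0.18 and adjusted p = 0.567, interval of the fold 0.665 to 1.12). Whether the difference of Spry1 departs from those of Spry2 and Spry4 was not tested.

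Dusp6 (ENSMUSG00000019960, chromosome 10, 99263231 to 99267489, plus strand), the ERK phosphatase, had the smallest p of the 9 tested genes among the 10. It was measured at 30.2, 33.0 and 25.9 CPM in controls and at 17.8, 24.6 and 21.9 CPM in KO libraries. All KO libraries lay below all controls, with KO library 2 only just below control library 3. The means were 29.7 ± 3.59 and 21.5 ± 3.43 CPM, a log2 fold change of -0.46 (with SE 0.16 and unadjusted p = 0.01164, adjusted p = 0.146). The KO level was 0.727 of the control level (95% interval 0.574 to 0.921). The adjusted p ran from 0.0872 to 0.621 over the 14 alternatives, and the log2 fold change from -0.57 to -0.35, the smallest being without KO library 1.

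Start sites of 3 of these feedback genes agree in RefSeq and GENCODE, and the 250 bases before them (RefSeq, GRCm38.p6, gene strand, 5′ to 3′) are shown because these are the genes through which ERK activity would be read. Capitals mark CG dinucleotides.
Spry2, chr14:105896820-105897069, minus strand: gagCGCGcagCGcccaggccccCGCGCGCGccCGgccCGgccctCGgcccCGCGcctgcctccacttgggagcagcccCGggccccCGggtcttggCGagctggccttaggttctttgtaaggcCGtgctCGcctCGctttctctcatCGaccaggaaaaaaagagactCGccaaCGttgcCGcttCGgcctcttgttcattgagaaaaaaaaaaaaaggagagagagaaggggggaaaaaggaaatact
Spry1, chr3:37639697-37639946, plus strand: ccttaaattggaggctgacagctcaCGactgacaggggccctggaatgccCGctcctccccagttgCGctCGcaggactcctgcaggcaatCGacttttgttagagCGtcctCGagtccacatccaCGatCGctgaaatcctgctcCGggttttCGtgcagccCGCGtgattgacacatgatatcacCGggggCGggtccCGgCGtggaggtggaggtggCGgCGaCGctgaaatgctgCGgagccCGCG
Dusp6, chr10:99262981-99263230, plus strand: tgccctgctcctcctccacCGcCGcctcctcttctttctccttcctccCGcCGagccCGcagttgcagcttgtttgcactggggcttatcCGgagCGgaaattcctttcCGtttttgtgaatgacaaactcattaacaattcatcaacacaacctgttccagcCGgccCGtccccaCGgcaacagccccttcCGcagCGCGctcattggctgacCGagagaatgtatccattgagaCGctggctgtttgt

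The printed stretches hold 23, 23 and 16 CG dinucleotides. Whole promoter windows (250 bases before to 50 after the start) were read for 8 of the 10 genes. Fgfr1 and Spry4 were not included. Of these 8, 7 had a ratio of observed to expected CG above 0.6, against 35.8% of all 32851 windows. The exception was Fgfr2 (0.282), whose RefSeq start lies 545 bases from the nearest GENCODE start. No window of the 8 genes held the ETS core CCGGAAG on either strand, which 8.86% of all windows hold. The AP-1 motif TGANTCA (7.81% of all windows) was found in the Met window, and the GC box GGGCGGG (25.6%) in those of Met, Spry1, Fgf2, Fgfr3 and Fgfr4. These matches describe the letters of the windows only.

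Per kilobase of exon, levels of the 10 genes spanned a wide range. In controls the order by mean CPM per kilobase was Met (41.9 ± 4.48), Spry2 (23.7 ± 1.81), Fgfr1 (10.2 ± 1.33), Dusp6 (9.48 ± 1.15), Fgfr4 (5.90 ± 1.65), Spry4 (3.58 ± 0.33), Spry1 (3.26 ± 0.51), Fgf2 (1.14 ± 0.67), Fgfr2 (0.270 ± 0.13) and Fgfr3 (0.256 ± 0.08; n = 3 each). Control libraries of neighbours in this order overlapped for Fgfr1 and Dusp6, for Spry4 and Spry1, and for Fgfr2 and Fgfr3. In KO libraries the order differed only in that Spry1 (3.91 ± 0.60) stood above Spry4 (3.11 ± 0.50), and Fgfr3 (0.295 ± 0.10) above Fgfr2 (0.125 ± 0.02). The distance of Fgfr1 to its neighbours leans on gene length. With the longest transcript in place of all exons it kept rank 3 in controls. Its control level was then 20.1 CPM per kilobase, and its control libraries overlapped those of Spry2 and no longer those of Dusp6.

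**Figure D4:**
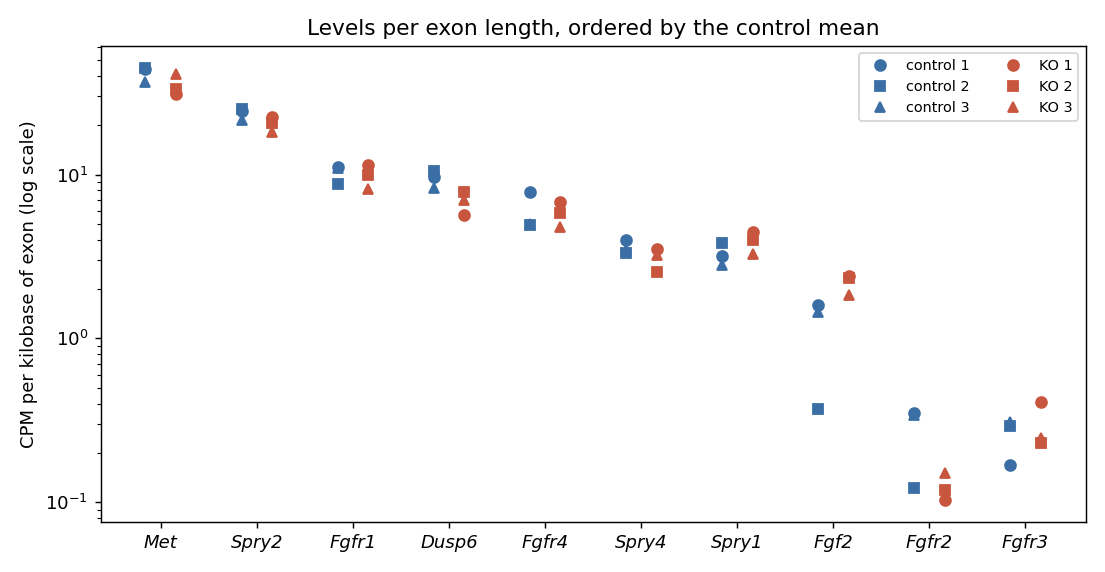
Level of each of the 10 genes in each library, in CPM per kilobase of exon on a log axis, ordered by the control mean. Met is highest in every library, and Fgfr2 and Fgfr3 lie lowest, below 0.5 CPM per kilobase.

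The ligands for these receptors were scarce in the same libraries. Hgf, the only known ligand of MET, had 2, 0 and 3 counts in controls and 3, 2 and 3 in KO libraries, too few to test. Of 21 other FGF genes, 19 did not pass the filter and had 0 to 12 counts per library. The 2 that passed, Fgf11 and Fgf13, belong to the FGF homologous factors, which act inside the cell. Fgf11 was at 11.3 ± 1.63 CPM in controls and 17.1 ± 2.39 CPM in KO libraries (log2 fold change 0.59 with SE 0.19 and adjusted p = 0.110). Fgf13 was at 3.36 ± 0.21 and 1.90 ± 1.07 CPM (log2 fold change -0.79 with SE 0.43 and adjusted p = 0.361).

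Other parts of the pathway were read from 7 lists of 157 genes, of which 113 were tested. Of these, 3 were higher in KO cells (background 2.22%) and 1 was lower (background 0.615%). Sulf1 and Sdc3 were among the genes that rose, and the gene that fell was Dusp9. The median log2 fold change of the 113 was 0.05, against 0.01 for all tested genes.

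Sulf1 and Sdc3 were the 2 called genes among 23 tested FGF coreceptors and heparan sulphate genes (2 higher, 0 lower, median log2 fold change 0.05). Sulf1 encodes an enzyme that removes sulphate groups from heparan sulphate outside the cell. It was at 58.1, 47.6 and 49.1 CPM in controls and 106.7, 97.9 and 83.6 CPM in KO libraries, with no overlap. It rose by a log2 fold change of 0.89 (with SE 0.13 and adjusted p = 8.920e-04) and passed in all 14 alternatives. Sdc3, the gene of the heparan sulphate carrier syndecan-3, rose from 27.1 ± 3.29 to 44.6 ± 6.73 CPM (0.72 with SE 0.15 and adjusted p = 0.0163). The Sdc3 call ended with DESeq2 (adjusted p = 0.0964), with library totals alone (0.0611), on leaving out control library 2 (0.109) or KO library 1 (0.0898), and on leaving out control library 3 with KO library 1 (0.0598).

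Sums of the markers listed for mural cells and for muscle fibres differed beside these genes. Summed mural and smooth muscle markers were higher in every KO library (104.2 to 125.3 CPM) than in every control (59.3 to 98.5 CPM), with Tagln and Acta2 called among 6 tested markers of 9. Activated muscle stem cells express Tagln and Acta2 too. Without these 2, the sums of the other 7 markers overlapped (16.1 to 43.2 CPM in controls and 25.9 to 34.6 CPM in KO libraries). Control library 3 was then the highest. The 2 genes were left out because they were called, which by itself brings the sums closer. The tested genes among those 7 were Cspg4 (log2 fold change 0.76), Pdgfrb (0.30), Rgs5 (-0.0024) and Abcc9 (-1.15), none of them called. Cspg4 was higher in every KO library (5.13 to 6.64 CPM) than in every control (2.71 to 4.41 CPM). Abcc9 had 58 counts in control library 3, against 7 and 10 in the other controls.

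Summed markers of muscle fibres were also higher in every KO library (99.5 to 128.5 CPM) than in every control (53.8 to 75.3 CPM). Of 6 tested markers of 11, 5 had a positive fold change and 2 were called. These were the skeletal actin gene Acta1 (log2 fold change 1.84, adjusted p = 0.001231) and the actinin gene Actn3 (0.76, adjusted p = 0.007536). The sums of the other 9 remained apart (14.6 to 21.0 CPM in controls and 23.8 to 30.3 CPM in KO libraries). Actn3 made up most of the full sums, at 44.2 ± 6.87 CPM in controls and 75.2 ± 10.4 CPM in KO libraries. The tested marker with a negative log2 fold change was Tnnt3 (-0.32). Whether these transcripts came from fibres or from the muscle stem cells was not tested. None of the 9 mural or 11 fibre markers was at 0 in all libraries. The part of mural cells, or of fibre transcripts, in the values of Sulf1 and Sdc3 was not tested.

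Of 23 tested feedback inhibitors outside the 10 genes, 0 were higher and 1 was lower (median log2 fold change 0.01). Dusp9, which encodes a further ERK phosphatase, fell from 12.9 ± 2.07 to 6.92 ± 0.83 CPM (log2 fold change -0.91 with SE 0.22 and adjusted p = 0.0351). Its groups did not overlap. The call ended with DESeq2 (adjusted p = 0.323), with the replicate number as a block (0.0710), on leaving out control library 2 (0.134), control library 3 (0.0952), or KO library 1, 2 or 3 (0.0851, 0.117 and 0.112), and on leaving out control library 3 with KO library 1 (0.0842).

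With edgeR, as with limma-voom and DESeq2, no gene was called among 16 receptor adaptors (median log2 fold change 0.02), 19 genes of the RAS, RAF, MEK and ERK kinases and the related p38 kinases (-0.02), or 26 ERK-induced transcription factors and targets (0.10). At an unadjusted p under 0.05, 1, 1 and 4 of them were higher and 0, 0 and 2 lower, against 17.7% of all tested genes in either direction. Nras was at 105.5 ± 4.51 and 95.9 ± 2.60 CPM in the control and knockout libraries (log2 fold change -0.14 with SE 0.11 and adjusted p = 0.545). The adaptor genes with the highest levels, Grb10 and Crk, had log2 fold changes of -0.23 (adjusted p = 0.351) and 0.05 (adjusted p = 0.856). Ccnd1, the cyclin D1 gene induced by growth factors, was at 301 ± 31.8 and 278 ± 12.3 CPM (-0.11, adjusted p = 0.676), and Jun at 262 ± 19.6 and 266 ± 24.8 CPM (0.02, adjusted p = 0.951).

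**Figure D5:**
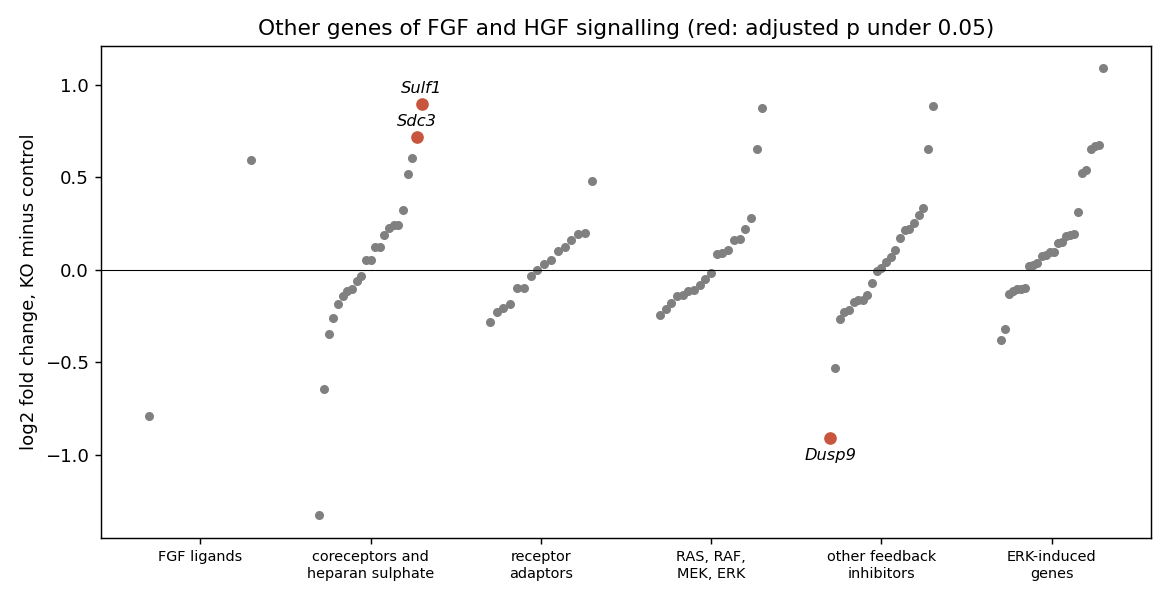
Log2 fold change (KO minus control) of the tested genes in 6 of the lists of FGF and HGF signalling; each point is a gene, sorted within its list, and red marks an adjusted p under 0.05. Sulf1 and Sdc3 are higher and Dusp9 is lower, and the other points are grey.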

How the data were processed

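RNA of 6 libraries (3 control, 3 KO) was analysed from 1 table of whole-number counts per Ensembl gene that the authors deposited without normalisation. STAR, Salmon, DESeq2 1.34.0 and GRCm38 are named in the submitters' processing notes; the counting tool, strand setting and annotation release are not given in those notes or the labels. A stranded total RNA kit with ribosomal depletion and an mRNA kit are both named, per the labels. No molecular identifiers are named, so counting error treats reads as independent. The labels call libraries of a group biological replicates. No library was a copy of another.

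Symbols came from a table of Ensembl names (55141 of 55487 genes), coordinates and exon lengths from GENCODE M21 on GRCm38, and promoter windows from RefSeq. Counts were tested with edgeR 4.0.16 in R 4.3.3 (TMM, default low-count filter, robust quasi-likelihood fit, two-sided, Benjamini-Hochberg adjustment over all 11224 genes tested, threshold 0.05). Intervals are 95% intervals from the fitted SE. The procedure was tested on simulated data. Members and lists were chosen with earlier results of these data known. Of each list, up to 4 passing genes by p are named, or, with none, the 2 highest by CPM; Hgf, Nudt6 and single marker genes are named in addition, and a few results are not reported here. The genes most like Met, Fgfr1 and Spry1 are those with the highest Pearson r over all genes of at least 10 CPM. Alternatives covered scaling, filters, DESeq2 1.42.0, limma-voom 3.58.1, the replicate number as a block, gene length and the removal of libraries. Python 3.11.15, SciPy 1.17.1 and matplotlib 3.10.9 served the other steps.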

Additional observations from a re-analysis of the deposited data

How the results depend on the processing

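The number of the 10 genes called was 0 in 13 of 14 alternatives and 1 (Fgf2) with no low-count filter. Over all genes, 318 calls became 511 with no filter and 184 with DESeq2, and ran from 152 to 345 with 1 library left out (157 without control library 2, 152 without KO library 1, 180 without KO library 2). The 4 pathway calls became 2 with library totals alone, 2 with DESeq2, 2 without control library 3 and KO library 1 together, and 1 to 4 with 1 library left out (1 without control library 2 or KO library 1, 2 without KO library 2 or 3). With the replicate number as a block they were 2, and no member was called. Correlations of same-numbered deviations were 0.14, -0.09 and -0.06, and not every sample correlated best with its own number. With so few libraries in each group, these correlations cannot settle whether the numbers pair the samples. Signs turned only for Fgfr1 (0.047 without KO library 3, range -0.18 to 0.047 with 1 library left out), Fgfr3 (-0.07 without control library 1 and -0.11 without KO library 1, range -0.11 to 0.33) and Fgfr4 (0.21 without control library 1 and 0.08 without KO library 3, range -0.16 to 0.21). Without length correction, the difference in the Fgfr1 share turned from -0.49 to 0.22 percentage points (exact permutation p = 0.9). With the longest transcript as length, control levels per kilobase were 47.2 for Met, 20.1 for Fgfr1, 0.630 for Fgfr2 and 0.432 for Fgfr3. The Fgfr1 share and the levels per kilobase shifted only because the same CPM was divided by another length or by none. The cause of the other shifts was not tested. Depth limits Fgfr2 and Fgfr3 most.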

Other observations

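The genes whose levels followed those of a receptor or Sprouty gene most closely over the 6 libraries are given as a description, since 7335 genes were compared over 6 libraries that share groups and scaling. For Met these were Atp2b1, Zfp609 and 4930503L19Rik (Pearson r between 0.994 and 0.998), and 255 genes had an r above 0.9. For Fgfr1 they were Mrpl58, Ppan and Dmwd (0.977 to 0.984), and 25 genes had an r above 0.9. For Spry1 they were Crat, Dgcr2 and Actr1a (0.976 to 0.980), with 31 genes above 0.9.

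KO library 1 had counts in 7369 genes that no other library detected, against 470 to 641 such genes in each of the others. Of the 7369, 4093 had a single count, and together they made up 0.395% of the counts of the library. Fgfr3, with 11 counts, had its highest CPM in this library, and Fgfr2, with 4 counts, its lowest.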
